A study of Mus musculus with 6 samples.

Results

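The immunity-related GTPase (IRG) genes of the mouse were described across 6 RNA-seq libraries of pancreatic myeloid cells. The 9 genes Irgm1, Irgm2, Igtp, Iigp1, Ifi47, Tgtp1, Tgtp2, Gm4951 and Gm4841 were chosen by symbol, out of 21780 genes in the count table, and they were selected from the measured difference between the groups. Their differences between the groups are therefore given as a description with no test. C57BL/6 mice were injected once intraperitoneally, and 7 days later live CD45+CD11b+ cells (CD45 marks leukocytes, CD11b myeloid cells) were sorted from their pancreas. The PBS group (3 libraries) received PBS alone, and the WGP group (3 libraries) received 1 mg of whole β-glucan particles in 200 µl of PBS. WGP are yeast cell walls stripped to a particulate β-glucan, which phagocytes take up through the receptor Dectin-1. The mice were 6 to 8 weeks old and of both sexes, and the sex behind each library is not given in the labels. Per the study's figure legends each sample came from its own animal, all within a single experiment, so that p-values measure the spread between animals of that experiment. The comparison addresses what a β-glucan injection changes in pancreatic myeloid cells.

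IRG proteins are GTPases of the dynamin type that cells make in response to interferon, interferon-γ above all, and that defend cells against microbes living in vacuoles. The effectors (GKS class) gather on the vacuole that holds a parasite such as Toxoplasma and break it open. The regulators (GMS class), which carry a methionine in place of the lysine of the nucleotide-binding P-loop, sit on the cell's own membranes and keep the effectors in the inactive GDP-bound state there. Promoters of interferon-induced genes commonly carry gamma-activated sites (GAS) and interferon-stimulated response elements (ISRE), the latter bound by factors of the IRF family. Humans have lost most of the family, so it is known chiefly from mice.

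The P-loop that separates the classes is shown first, as 24 coding bases read from GENCODE vM21 transcripts, with the codon of the class-defining residue in capitals (ATG for methionine, AAG for lysine).
Irgm1, Irgm2 and Igtp: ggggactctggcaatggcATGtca
Ifi47: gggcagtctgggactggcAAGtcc
Tgtp1 and Tgtp2: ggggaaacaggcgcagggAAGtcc
The 3 regulators were identical over these 24 bases, as were Tgtp1 and Tgtp2. The other 3 members also fell in the GKS class by the same search, which makes 3 regulators and 6 effectors by sequence.

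The upstream sequences are shown next because 5 of the 6 members with a RefSeq promoter held an interferon element close to the start. RefSeq promoters (GRCm38.p6, 250 bases before to 50 after the start) were searched on both strands for the ISRE core GAAANNGAAA and the GAS element TTCNNNGAA. The printed stretch runs from 100 to 16 bases upstream of the start on the gene's strand and overlapped no annotated exon. GAS and ISRE matches are in capitals. The RefSeq start used for Irgm2 lies inside the annotated span of that gene, chr11:58199618-58222782. For Irgm1, whose match lies inside an exon of a longer annotated transcript, only the 30 bases of the site are given.
Irgm2, chr11:58214877-58214961, plus strand: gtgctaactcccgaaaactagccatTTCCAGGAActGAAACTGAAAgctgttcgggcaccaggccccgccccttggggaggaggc
Igtp, chr11:58199456-58199540, plus strand: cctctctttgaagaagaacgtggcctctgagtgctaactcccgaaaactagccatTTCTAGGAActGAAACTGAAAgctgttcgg
Tgtp1, chr11:48992262-48992346, minus strand: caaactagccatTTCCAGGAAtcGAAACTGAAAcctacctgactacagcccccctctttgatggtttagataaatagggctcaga
Tgtp2, chr11:49064228-49064312, minus strand: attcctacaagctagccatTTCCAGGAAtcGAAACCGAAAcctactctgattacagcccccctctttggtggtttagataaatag
Gm12185, chr11:48927198-48927282, minus strand: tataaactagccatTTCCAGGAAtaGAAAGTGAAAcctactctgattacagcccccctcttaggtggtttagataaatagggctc
Irgm1, chr11:48871427-48871456, minus strand: tttcaaGAAATAGAAACCGAAActgattct
The ISRE core was present in 5 of the 6 member promoters (all but Ifi47) and in 3.44% of all 32851 promoters. The GAS element was present in 4 of the 6 (Irgm2, Igtp, Tgtp1 and Tgtp2) and in 8.30% of all promoters. Irgm1 held 2 overlapping ISRE cores, beginning 30 and 24 bases upstream of the start. Ifi47 held neither motif in this window.

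In Irgm2, Igtp, Tgtp1 and Tgtp2 the elements stood in the same arrangement, a GAS element followed after 2 bases by an ISRE core. The arrangement was written out as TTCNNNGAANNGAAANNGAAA after these promoters had been seen, and it was then searched on both strands in all 32851 promoters. It was found in 5 promoters, which were those 4 members and Gm12185, another IRG gene that is no member and is described with its values further on. The stretches were also alike around the motifs, since the best local alignment of the printed Igtp and Irgm2 sequences matched 54 of 55 bases, that of Tgtp1 and Tgtp2 73 of 77, and that of Tgtp2 and Gm12185 74 of 80. A match describes the letters of the window and does not show that a factor binds there.

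**Figure D1:**
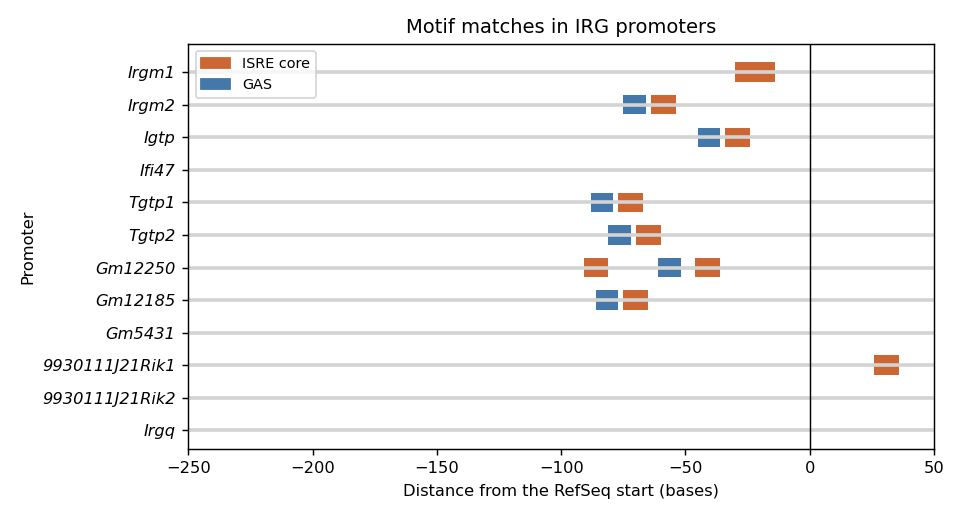
Positions of ISRE core matches (orange) and GAS matches (blue) in 12 RefSeq promoters of IRG genes, with the distance from the start in bases on the x axis and 1 promoter per line. The GAS element lies just upstream of the ISRE core in Irgm2, Igtp, Tgtp1, Tgtp2 and Gm12185, and Ifi47, Gm5431, 9930111J21Rik2 and Irgq hold no match.

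Library totals were 35334645 to 40580936 counts for PBS and 38240913 to 43341834 counts for WGP, and all 8 myeloid sort markers (among them Ptprc, Itgam, Csf1r and Lyz2) were detected. The most frequent low count of a library lay between 19 and 41 reads, which stands here for the reads that 1 molecule gave, so that counting intervals are too narrow. Levels are given as CPM, the counts per 1000000 of the effective library size after TMM scaling, and errors are SD over n = 3 libraries unless named otherwise. Y-linked genes had 8972 and 10063 counts in PBS replicates 2 and 3, and 0 or 1 count in PBS replicate 1 and in all WGP libraries. In bulk RNA, more cells of a type and more RNA per cell cannot be told apart. Cell type markers moved with the groups. Summed sort markers were 10076 to 16443 CPM in PBS and 22998 to 24162 CPM in WGP (1 of 8 called higher). PBS replicate 1 had the lowest sum of sort markers and the highest sums of B cell and NK cell markers (2641 and 245 CPM). Summed resident macrophage markers were 5318 to 12456 CPM in PBS and 1338 to 2192 CPM in WGP (7 of 8 called lower). Of 8 Ly6C-high monocyte markers, 5 were called higher and 1 lower, and their sums overlapped (2671 to 4232 CPM in PBS, 3865 to 4439 CPM in WGP). Markers of acinar cells (1243 to 4969 CPM in PBS, 349 to 585 CPM in WGP, 8 of 8 called lower) and of B cells (389 to 2641 CPM in PBS, 92.7 to 182 CPM in WGP, 7 of 7 called lower) were lower in WGP, as were 2 of 8 NK cell markers and 1 of 8 markers of conventional dendritic cells, whose sums did not overlap (245 to 277 CPM in PBS, 117 to 221 CPM in WGP). Of 8 T cell markers 1 was called higher and none lower, and their sums overlapped (42.8 to 50.7 CPM in PBS, 19.2 to 55.7 CPM in WGP). Cd8a had 0 counts in PBS and 1.66, 2.94 and 1.49 CPM in WGP. The part of these shifts in the values below was not tested.

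All 9 IRG genes were higher in each WGP library than in any PBS library, and all 9 met the call used for the whole table (edgeR with Benjamini-Hochberg adjustment, threshold 0.05, and a log2 fold change of 1 or more in either direction). Across the 14429 genes tested, 9.49% were called, 4.53% higher and 4.96% lower, and 16.0% had all WGP libraries above all PBS libraries. Because the genes were selected on this contrast, nothing is read from that count. The median log2 fold change of the 9 genes was 3.58, against −0.05 over all genes tested, and it was 3.58 or 3.31 with Gm4841 placed at the bounds given below for a floor of 3 counts or of 3 times 41 reads. Together the 9 genes took 0.0158% to 0.0188% of all counts in PBS and 0.114% to 0.285% in WGP. Their summed level was 170 ± 21.4 CPM in PBS and 1880 ± 961 CPM in WGP, an 11.1-fold difference of the means, which was 7.84-fold without WGP replicate 2.

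**Figure D2:**
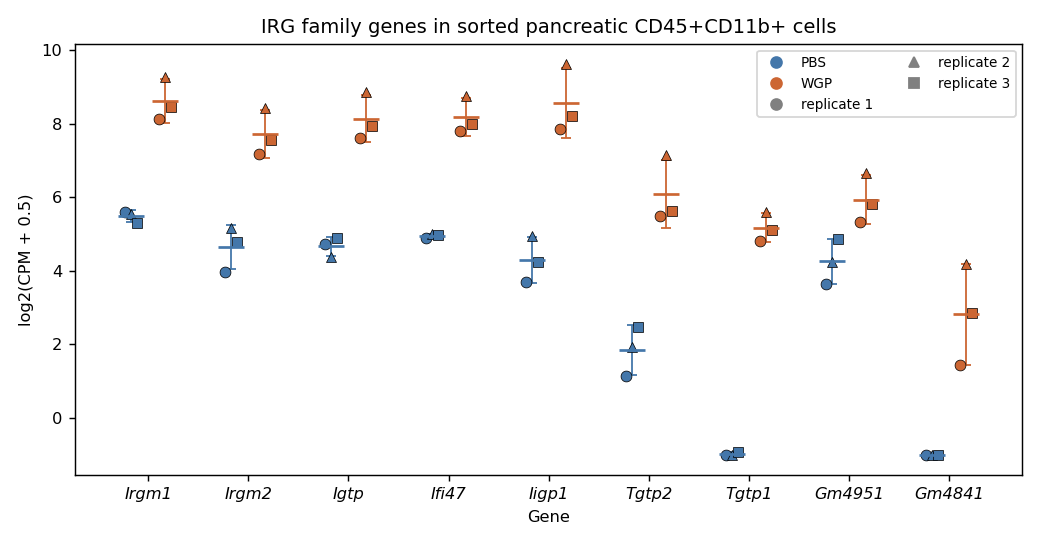
Level of each of the 9 IRG genes as log2(CPM + 0.5) in the 3 PBS (blue) and 3 WGP (orange) libraries, with the replicate given by the marker shape, the mean as a horizontal line and the SD as a bar. Every WGP point lies above every PBS point of the same gene, and WGP replicate 2 (triangle) is the highest library for each gene.

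The 3 regulators differed by a similar amount between the groups, with log2 fold changes from 3.12 to 3.58. Irgm1 (chr11:48861968-48871683, minus strand), which acts at the Golgi, mitochondria and lysosomes and is required for control of mycobacteria in mice, was at 48.4, 46.3 and 39.0 CPM in PBS and at 278, 624 and 352 CPM in WGP. The PBS libraries lay within a 1.24-fold range, and the log2 fold change was 3.23 (SE 0.29). Irgm2 (chr11:58199618-58222782, plus strand), a Golgi-bound regulator, was at 15.2, 35.4 and 27.3 CPM in PBS and at 143, 347 and 188 CPM in WGP. Its PBS values spread over 2.32-fold, with PBS replicate 1 the lowest, and its log2 fold change was 3.12 (SE 0.38). Igtp, also called Irgm3 (chr11:58199556-58207591, plus strand), a regulator of the endoplasmic reticulum and lipid droplets, was at 26.3, 20.3 and 29.1 CPM in PBS and at 197, 464 and 246 CPM in WGP. This corresponded to a log2 fold change of 3.58 (SE 0.32), and the groups were far apart in all 3 regulators. Igtp and Irgm2 overlap in the annotation and share 162 exon bases, so a part of the reads of each could have been counted for the other or for neither.

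Among the effectors, Ifi47 (Irgd, chr11:49076587-49096974, plus strand) had a 1.07-fold range in PBS. This was the narrowest of the members with counts in every PBS library. Ifi47 was at 29.3, 31.5 and 31.1 CPM in PBS and at 222, 436 and 254 CPM in WGP, a log2 fold change of 3.31 (SE 0.25). It thus stood beside the regulators in size, although its promoter window held neither searched motif. Exons of Olfr56 and Gm12188 overlap those of Ifi47, and 2.99% of its 75-base windows also occurred in other genes.

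Tgtp1 and Tgtp2 encode the near-identical forms of Irgb6, an effector that is among the first to load onto the Toxoplasma vacuole. Their longest annotated transcripts differed at 6 of 2810 aligned bases (99.8% identity), and 77.1% of the 75-base windows of Tgtp1 and 83.5% of those of Tgtp2 occurred in another gene, so the split of reads between them is uncertain. Tgtp1 (chr11:48985327-48994172, minus strand) had 0, 0 and 1 count in PBS and 1017, 1981 and 1388 counts in WGP. The ratio of scaled counts, 4386 counts against 1, was 4352 with an exact binomial 95% interval of 781 to 171940, which covers counting error only. Without PBS replicate 3, which held the single count, Tgtp1 was at least 949-fold higher in WGP at a floor of 3 counts over the group, and 23.1-fold higher at a floor of 3 times 41 reads, the largest value of the most frequent low count in PBS. Tgtp2 (chr11:49057194-49064206, minus strand) had 65, 129 and 206 counts in PBS and 1638, 5865 and 1987 counts in WGP. In CPM this was 1.69, 3.31 and 5.03 in PBS and 44.5, 141 and 48.6 in WGP, a log2 fold change of 4.54 (SE 0.55) that was 3.80 without WGP replicate 2. At the most frequent low count of each library, the Tgtp2 counts in PBS amounted to 1.59, 4.61 and 7.36 molecules.

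The sum of Tgtp1 and Tgtp2 does not depend on how reads were divided between them. Reads of shared sequence could also have been counted for neither gene or for Gm12185, and the sum would miss those. As counted, the sum was 1.69, 3.31 and 5.06 CPM in PBS and 72.1, 189 and 82.5 CPM in WGP, a 34.2-fold difference of the means. Tgtp1 made up 38.3%, 25.2% and 41.1% of the counts of the pair in WGP, and 0%, 0% and 0.483% in PBS. The share of Tgtp1 thus differed between the groups as well as the sum, at control counts worth only a few molecules per library.

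The remaining members lie in a separate cluster, on chromosome 18, and encode Irga-class effectors. Iigp1 (Irga6; chr18:60376027-60392634, plus strand), the effector whose structure and assembly on the parasite vacuole are known best, was at 12.5, 30.1 and 18.5 CPM in PBS and at 230, 797 and 295 CPM in WGP. Its mean level in WGP, 441 ± 310 CPM, had its highest library in WGP replicate 2, and its log2 fold change of 4.43 (SE 0.51) was 3.69 without that library. Gm4951 (chr18:60212080-60247820, plus strand) was at 12.0, 18.5 and 28.7 CPM in PBS and at 39.8, 101 and 56.0 CPM in WGP. With a log2 fold change of 1.73 (SE 0.38) it had the smallest difference of the 9, and it was 1.28 without WGP replicate 2. Gm4841 (chr18:60268305-60273272, minus strand) had 0 counts in all 3 PBS libraries and 81, 727 and 273 counts in WGP. It was at least 347-fold higher in WGP at a floor of 3 counts over the PBS group, and at least 175-fold higher without WGP replicate 2. At a floor of 3 times 41 reads, the largest value of the most frequent low count in PBS, the bound was 8.47-fold, and 4.27-fold without WGP replicate 2.

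Per kilobase of exon, the 9 genes kept much of their order from PBS to WGP. In PBS the levels were highest for Igtp (12.5 ± 2.22 CPM per kb) and Ifi47 (12.4 ± 0.466), whose ranges overlapped. Irgm1 (7.67 ± 0.846), Gm4951 (7.47 ± 3.17) and Irgm2 (7.04 ± 2.74 CPM per kb) followed with overlapping ranges, then Iigp1 at 3.50 ± 1.54, which overlapped Irgm2 in range but lay below it in 3 of 3 libraries, and Tgtp2 at 1.14 ± 0.569 CPM per kb, which overlapped no other member. In WGP Igtp (149 ± 70.5 CPM per kb) and Ifi47 (123 ± 46.6) again led, and Igtp was above Ifi47 in 3 of 3 libraries. Iigp1 (75.7 ± 53.3), Irgm1 (71.9 ± 31.4) and Irgm2 (61.3 ± 29.1 CPM per kb) came next and overlapped, and while Iigp1 exceeded Irgm1 in 1 of 3 libraries, Irgm1 exceeded Irgm2 in 3 of 3. Tgtp2 (26.6 ± 18.7) and Gm4951 (24.8 ± 12.0 CPM per kb) did not differ beyond their spread, and Tgtp1 (11.4 ± 3.22) and Gm4841 (3.10 ± 2.78 CPM per kb) were lowest. Gm4951 moved from rank 4 to rank 7 and Iigp1 from rank 6 to rank 3. On leaving out each library, 12 to 18 of 18 ranks of level were kept. With lengths limited to windows found in no other gene, Tgtp2 was at 6.26 CPM per kb in PBS, above Iigp1 at 3.59, and Ifi47 and Igtp were both at 15.3 CPM per kb. On the same lengths Tgtp2 stood at rank 3 in WGP with 146 CPM per kb and Tgtp1 at rank 7 with 67.5 CPM per kb, so the place of this pair depends on how shared sequence is handled.

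**Figure D3:**
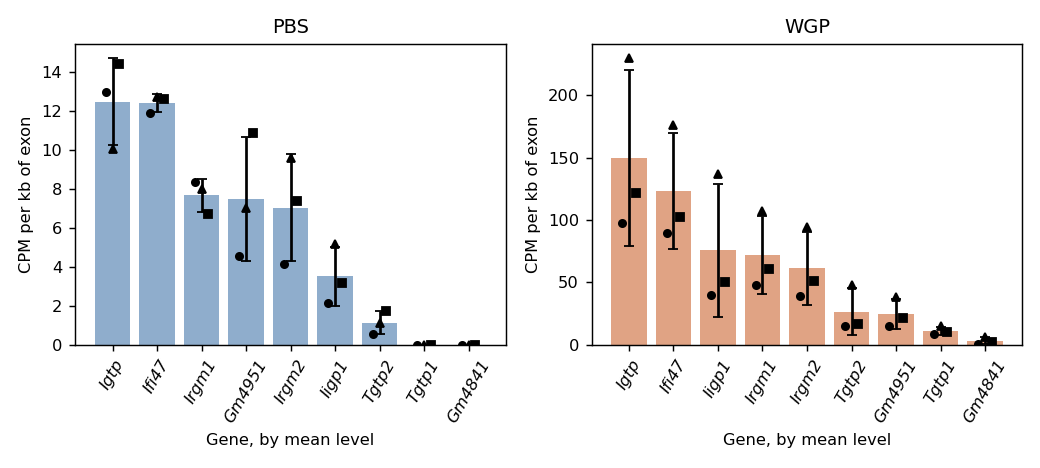
Mean level of the 9 IRG genes per kilobase of annotated exon (bars, CPM per kb, starting at 0) with the SD (error bars) and each library (circle, triangle and square for replicates 1, 2 and 3), in order of the mean within PBS (left) and WGP (right). The axes differ in scale, Igtp and Ifi47 lead in both groups, and Tgtp1 and Gm4841 are last in both.

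The share of the classes depended on the length used. Per kilobase of exon, the 3 regulators made up 52.9% ± 3.68 of the summed level in PBS (57.1%, 51.4% and 50.2%) and 52.0% ± 1.34 in WGP (52.1%, 50.6% and 53.3%). The ranges of the groups overlapped. An alternative added after the data were seen limited the lengths to windows found in no other gene. The share was then 54.1%, 47.5% and 45.4% in PBS and 41.2%, 39.6% and 42.9% in WGP, and the ranges did not overlap. The counts themselves were not limited to those windows. Tgtp1 and Tgtp2 were divided by 540 and 534 window starts in place of 3205 and 2938 exon bases, which assumes that no shared read was counted.

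WGP replicate 2 was the highest library for all 9 genes. Its level was 1.55 times (Tgtp1) to 3.95 times (Gm4841) the mean of the other WGP libraries, and 1.98, 2.10 and 2.10 times for Irgm1, Irgm2 and Igtp. Over all genes tested, 42.4% had WGP replicate 2 as the highest WGP library, and 14.0% reached a ratio as high as the lowest of the 9. Among the genes called higher in WGP, 14.5% reached it. That library also stood apart in summed fibroblast and endothelial markers, at 1092 CPM against 79.2 and 70.6 CPM in the other WGP libraries and 102 to 213 CPM in PBS. It was lowest in summed dendritic cell markers, at 117 CPM against 221 and 205 CPM in the other WGP libraries. Summed T cell markers were at 55.7 CPM in it against 19.2 and 23.5 CPM in the other WGP libraries and 42.8 to 50.7 CPM in PBS, and Cd3e was at 8.27 CPM against 1.33 and 1.78 CPM, with 0, 0.0770 and 0.684 CPM in PBS. With the Y-linked covariate, which leaves PBS replicate 1 as the only control, the log2 fold changes of Irgm2, Iigp1, Tgtp2 and Gm4951 were 3.89, 5.14, 5.53 and 2.44. Each was over 1.5 times larger as a fold than against all PBS libraries. PBS replicate 1 was the lowest PBS library for each of these genes. Without WGP replicate 2 all 9 genes stayed at log2 fold changes of at least 1.28.

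Other genes of the IRG family, several of which lie next to members, were mostly not called. Of 7 tested, 1 was called higher and none lower by edgeR, 1 had an unadjusted p below 0.05, and their median log2 fold change was 0.42. In 3 of the 7 all WGP libraries lay above all PBS libraries, as in 16.0% of all genes tested. The gene called was Gm12185, a tandem IRG gene with 2 P-loop matches in an open frame of 835 codons, whose promoter carries the shared GAS and ISRE arrangement. It had 213, 293 and 294 counts in PBS and 783, 1247 and 984 counts in WGP, with a log2 fold change of 1.90 (SE 0.29, adjusted p = 0.00154, edgeR). Since 223 of its exon bases overlap those of Tgtp1, reads of one could have been counted for the other. Its tandem neighbours gave smaller values, with Gm5431 at a log2 fold change of 0.70 (adjusted p = 0.276, edgeR), 9930111J21Rik1 at 0.42 (adjusted p = 0.236, edgeR) and 9930111J21Rik2 at 0.10 (adjusted p = 0.770, edgeR). On the same strand, 9930111J21Rik1 lies within the span of Gm12185 and 9930111J21Rik2 between Tgtp1 and Tgtp2, and 75.2% and 51.6% of their windows occurred in other genes. F830016B08Rik, which lies between Gm4841 and Iigp1, had 217, 870 and 586 counts in PBS and 415, 1467 and 834 in WGP, so that the groups overlapped (log2 fold change 0.66, adjusted p = 0.443, edgeR). Irgq, a form without GTPase activity, was at −0.22 (adjusted p = 0.619, edgeR), and Irgc1, known from the testis, had at most 57 counts in any library (−1.47, adjusted p = 0.703, edgeR). With the Y-linked covariate, against PBS replicate 1 alone, Gm5431 was at a log2 fold change of 2.03. Its PBS values were 11.3, 33.5 and 40.2 CPM, and its WGP values 46.1, 45.7 and 46.7 CPM. Gm12250 (Irgb10), an effector that opens bacteria for sensing by inflammasomes, is annotated as a processed pseudogene in GENCODE vM21, and its expression was not analysed here.

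The interferon-γ pathway, which drives IRG transcription, was measured in the same libraries, and 7 of the 13 genes considered rose and none fell (median log2 fold change 1.50). The ligand gene Ifng itself was at 474, 217 and 0 counts in PBS and at 37, 136 and 222 counts in WGP, so the groups overlapped (log2 fold change −0.88, SE 1.39, adjusted p = 0.753, edgeR). Its direction was not stable, with values from −1.93 to 1.60 over the alternatives. Of the receptor chains, Ifngr2 rose by a log2 fold change of 1.51 (adjusted p = 5.44e-05, edgeR), and Ifngr1 was at 0.55 (adjusted p = 0.126, edgeR). Of the kinases, Jak2 rose (1.50, adjusted p = 2.79e-04, edgeR) and Jak1 was at 0.03 (adjusted p = 0.924, edgeR).

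Downstream of the receptor, 5 of these genes rose. Irf1, which binds ISRE sequences, rose by 2.30 (adjusted p = 1.53e-04, edgeR), and Batf2, an AP-1 family factor of activated macrophages, rose by 3.58 (adjusted p = 4.65e-05, edgeR). The MHC transactivators Ciita (1.57) and Nlrc5 (2.20) rose as well, with adjusted p of 1.71e-04 and 2.40e-05 (edgeR). Irf8, a lineage factor of monocytes, passed the adjusted p (0.00521, edgeR) with a log2 fold change of 0.96 and so was not called. Of the feedback inhibitors, Socs1 rose (3.69, adjusted p = 0.00354, edgeR) and was at 3.47 with the Y-linked covariate, against PBS replicate 1 alone. Socs3 was at 0.30 (adjusted p = 0.232, edgeR) and the phosphatase gene Ptpn2 at 0.12 (adjusted p = 0.803, edgeR).

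**Figure D4:**
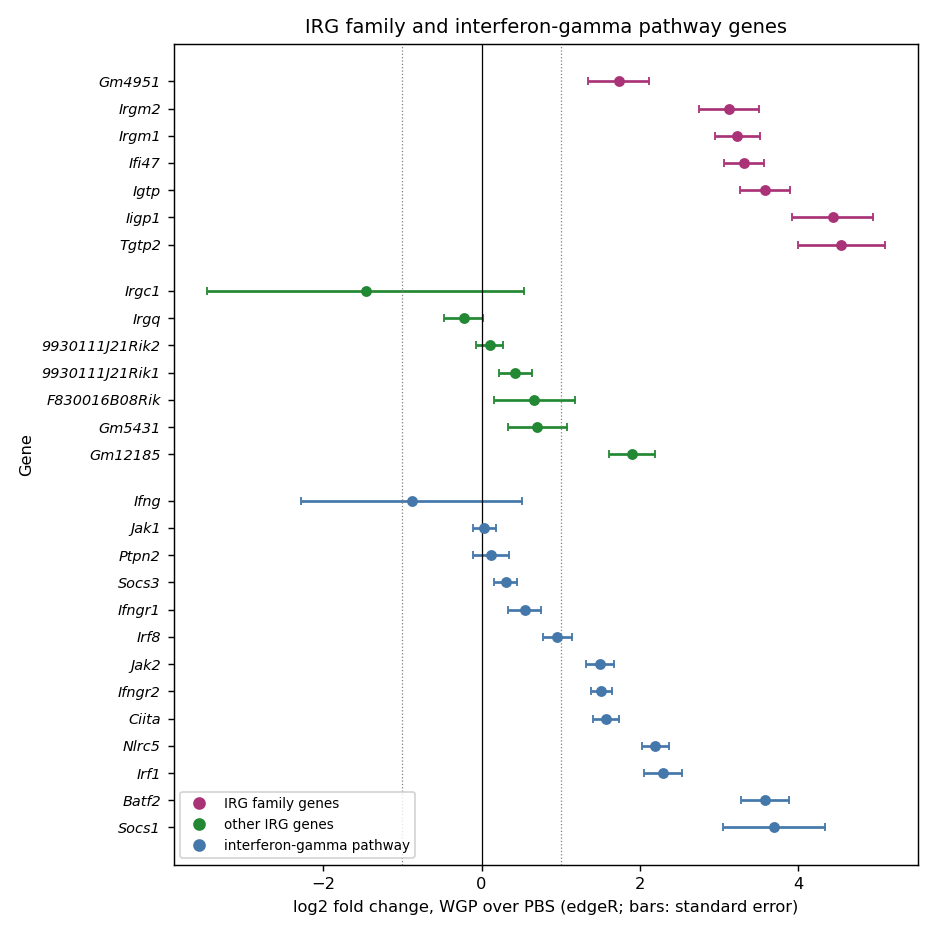
Log2 fold change of WGP over PBS (x axis; bars, standard error of the edgeR fit) for 7 IRG family members (purple), 7 other IRG genes (green) and 13 genes of the interferon-γ pathway (blue), with dotted lines at −1 and 1. Tgtp1 and Gm4841 are left out because they had 1 and 0 counts in PBS, and apart from Gm12185 and Irgc1 the other IRG genes lie between −0.22 and 0.70.

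The guanylate-binding proteins (GBPs), larger interferon-induced GTPases that also load onto vacuoles, rose in all 10 genes tested, with a median log2 fold change of 4.38 and values from 2.22 (Gbp9, adjusted p = 4.50e-05, edgeR) to 5.37 (Gbp5, adjusted p = 2.89e-05, edgeR) among those with counts in PBS. Gbp2 went from 65.0 ± 5.59 to 1988 ± 1012 CPM (4.93, adjusted p = 1.86e-05, edgeR). The remaining genes called were Gbp2b (4.11), Gbp3 (2.52), Gbp4 (4.75), Gbp6 (3.84), Gbp7 (2.38) and Gbp8 (4.65). Gbp10 had 0 counts in PBS and 31, 356 and 67 in WGP. Its call was lost without WGP replicate 2 (adjusted p = 0.185, edgeR), with the replicate block (0.0510) and with counts divided by the reads per molecule (0.0823). WGP replicate 2 was the highest WGP library for 9 of the 10 genes, at a median of 1.90 times the others, beside 2.10 times for the 9 IRG genes.

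Genes named for antiviral responses had lower fold changes in the median. Of 15 tested antiviral interferon-stimulated genes, 9 rose and 1 fell, with a median log2 fold change of 1.25, and WGP replicate 2 was at a median of 1.04 times the other WGP libraries. Those that rose were Isg15 (2.05), Ifit1 (1.37), Ifit2 (2.09), Rsad2 (1.14), Oas1a (1.27), Oas3 (2.11), Oasl2 (1.79), Cmpk2 (1.25) and Ifih1 (1.04). The log2 fold change of Ifih1 fell below 1, and its call was lost, without PBS replicate 1 (0.89) or WGP replicate 2 (0.97). The same held with scaling to library totals only (0.95). With the Y-linked covariate Cmpk2 was at 0.90, against PBS replicate 1 alone. The gene that fell was Oasl1, which restrains translation of Irf7 (log2 fold change −1.53, adjusted p = 6.88e-04, edgeR). In the type I interferon pathway, 2 of 9 tested genes rose, Stat2 (1.29, adjusted p = 2.25e-04, edgeR) and Irf7 (1.96, adjusted p = 2.74e-05, edgeR), and 1 fell. The latter was the ligand gene Ifnb1, with 376, 460 and 515 counts in PBS and 0 in all 3 WGP libraries. Ifnar2, a receptor chain named after its values were seen, passed the adjusted p (0.00422, edgeR) at a log2 fold change of 0.85. With the Y-linked covariate Ifnar2 was at 1.04, against PBS replicate 1 alone.

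The machinery that IRG proteins work with on the vacuole was measured as well. Effector loading needs the ATG8 conjugation genes of the autophagy pathway, of which 1 of 12 tested, Gabarapl1, fell (log2 fold change −1.02, adjusted p = 0.00667, edgeR) and none rose, with a median of 0.02. That call sits at the fold threshold and was lost without PBS replicate 3 (−0.82) or WGP replicate 3 (−0.94). With the Y-linked covariate, against PBS replicate 1 alone, Gabarapl1 was at −0.62. Next in p came Atg5, at 0.79, which passed the adjusted p (0.0163, edgeR) without reaching the fold. Map1lc3a followed at −0.92 (adjusted p = 0.159, edgeR), and was at −1.61 with that covariate. Of 10 ubiquitin and effector genes of the damaged vacuole, edgeR called 0, and 4 had an unadjusted p below 0.05, as had 26.0% of all genes tested. The smallest p were those of Rnf31 (0.53, adjusted p = 0.0319, edgeR), Trim21 (0.94, adjusted p = 0.0507, edgeR) and Sqstm1 (−0.47, adjusted p = 0.0544, edgeR). Trim21 was called without PBS replicate 2 (1.17, adjusted p = 0.0452, edgeR). With the Y-linked covariate, against PBS replicate 1 alone, Trim21 was at 1.60. Casp1, named after its values were seen, was at 1.30 with that covariate, again against PBS replicate 1 alone.

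The genes whose pattern was most like that of the IRG genes were sought by the root mean square difference, over the 6 libraries, between the centred log2(CPM + 0.5) of a gene and the median centred profile of the 9 members. Among 14420 other genes the median of this difference was 1.82. The closest were Batf2 (0.151), Dmkn (0.187), Il18bp (0.207), Fpr1 (0.214), Slamf8 (0.217), Gbp6 (0.220), Fcgr4 (0.231), Ptges (0.281), Slco3a1 (0.282) and Egln3 (0.288). Batf2 was at 8.30, 9.32 and 9.90 CPM in PBS and at 85.8, 166 and 76.5 CPM in WGP. Il18bp, the soluble inhibitor of IL-18, was at 10.5, 10.2 and 10.7 CPM in PBS and at 66.2, 149 and 107 CPM in WGP. Fpr1, a formyl peptide receptor of phagocytes, and Fcgr4, an activating receptor for IgG, had means of 8.94 ± 1.83 and 26.9 ± 7.60 CPM in PBS and 108 ± 23.8 and 327 ± 107 CPM in WGP. Dmkn had 0 counts in PBS, so its place was set by the pseudocount, and it stood at rank 191 with a pseudocount of 0.1 CPM. For comparison, the members themselves lay between 0.150 (Ifi47) and 1.37 (Tgtp1) from their own median profile. Without WGP replicate 2, 5 of these 10 genes were still among the 10 closest.

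**Figure D5:**
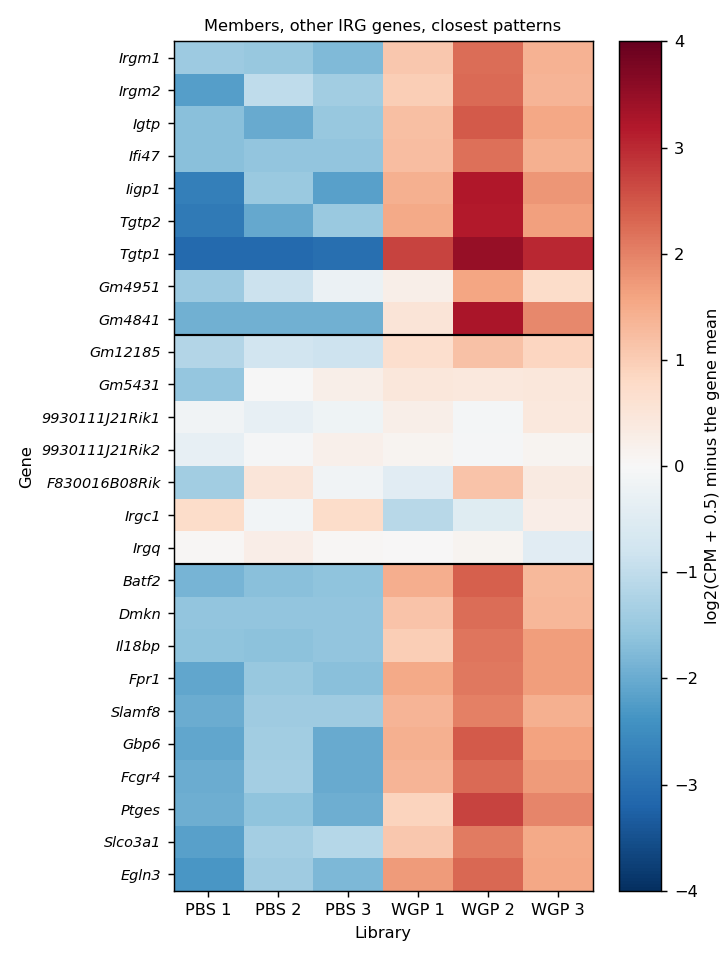
Log2(CPM + 0.5) of each gene minus its mean over the 6 libraries (colour, blue below and red above the mean) for the 9 IRG genes (top), 7 other IRG genes (middle) and the 10 genes of closest pattern (bottom), with 1 column per library. The top and bottom blocks change from blue in PBS to red in WGP and are darkest in WGP replicate 2, and of the middle block Gm12185 shows the same change.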

How the data were processed

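RNA from sorted cells was sequenced as single-end 75-base reads. The authors aligned the reads to mm10 (GRCm38.p6) with STAR 2.6 and counted them per Ensembl gene with HTSeq 0.10.0. The deposited table holds raw counts for 3 PBS and 3 WGP libraries. The annotation release, the strand setting and the handling of duplicate reads are not given in the sources used here, so overlapping and near-identical genes are uncertain. WGP was compared with PBS in R 4.3.3 by the edgeR 4.0.16 quasi-likelihood test with TMM scaling, on the protein-coding genes whose RLE-normalized counts reached a total of 10 over all libraries. The fit was checked on simulated counts. DESeq2 1.42.0, limma-voom (limma 3.58.1), other scalings and filters, a replicate block, a Y-linked covariate and the omission of each library were alternatives. The members and gene lists were chosen with earlier results of these data known. Named were all members, all other IRG and interferon-γ pathway genes (except a pathway gene that is not reported here), the genes called or with the smallest p in other lists, and the 10 closest patterns. Windows of 75 bases were compared among GENCODE vM21 transcripts, in place of the genome planned. No pairing of the samples by replicate number was seen.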

Additional observations from a re-analysis of the deposited data

How the results depend on the processing

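The 9 IRG genes stayed above a log2 fold change of 1 under all alternatives computed (153 values), and their median ranged from 3.13 to 3.89. The Y-linked covariate leaves PBS replicate 1 as the only control. Against it Irgm2 was at 3.89, Iigp1 at 5.14, Tgtp2 at 5.53 and Gm4951 at 2.44. The fitted value of Tgtp1, which is no bound at 1 PBS count, went from 11.62 to 13.49. With the adjusted p alone, 2071 genes were called in place of 1369, with 5 of the type I pathway, 2 of ATG8 conjugation and 1 of the vacuole genes. Calls with the Y-linked covariate are not counted, because of its single control library. The ATG8 count was 0 with limma-voom. Leaving out each library gave 1146 to 1396 called genes, 0 to 1 ATG8 genes and 0 to 1 vacuole genes. Irf8 was called without PBS replicate 1 or WGP replicate 1, and Usp18 without WGP replicate 3 (adjusted p = 0.0399, edgeR). Ifi44 was called without PBS replicate 3, with limma-voom and with counts divided by reads per molecule. Usp18 and Ifi44 were named after their values were seen. With unique windows 6 of 18 ranks of level were kept. The closest patterns shared 6 of 10 genes with a pseudocount of 0.1 CPM (chosen after seeing the data). The closest patterns shared at least 5 of 10 genes on leaving out each library, the lowest without WGP replicate 2. Deviations of same-numbered libraries correlated at 0.02, −0.06 and 0.04, so no pairing by replicate number was seen, which does not exclude one. With the replicate block the ATG8 count was 0, Gbp10 was no longer called (adjusted p = 0.0510) and Ifi44 was called. Depth limits Tgtp2, whose control counts stand for a few molecules, and Tgtp1 and Gm4841, which had 1 and 0 control counts.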
